A study of Mus musculus with 19 samples.

Results

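Cystic embryoid bodies (EBs) were sampled after 10 days (d10) and 15 days (d15) of differentiation, and the change between the days was compared within each of 2 mouse embryonic stem (ES) cell clones. Autosomal genes were then sorted by whether they moved the same way in both clones or in opposite directions. The count table held 23337 gene symbols, of which 22200 were autosomal. A mean level of at least 1 CPM (counts scaled to a common library size) over the 4 libraries was reached by 13035 autosomal genes, which are the genes described here, and 9165 fell below it. The study made these EBs to ask how far a cystic EB resembles the yolk sac, and measured yolk sac endoderm (ysE), the mesoderm of the visceral yolk sac (VYS) and fetal liver with them. Those tissues came from FVB mice, ysE at E9.25 and E12.5, mesoderm at E9.25 and liver at E12.5, and so differ from the EBs in strain. Both clones have the background C57Bl/6x129, and the labels name no genetic change and no drug. Clone A9 (XY) gave the d10 and d15 libraries of replicate A, made with the ScriptSeq v1 protocol. Clone JN (XX) gave those of replicate B, made with a TruSeq protocol in which dUTP marks the second strand. ES cells were kept with LIF on irradiated embryonic fibroblasts, aggregated in microwells and then grown as floating cultures without LIF. There is 1 library per clone and day, and nothing says how many cultures each held. Clone, sex and library protocol go together, so that their parts in a difference between A9 and JN cannot be told apart.

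A cystic EB is a fluid-filled aggregate with an outer epithelium that makes endoderm markers, and which endoderm, embryonic or extra-embryonic, that is was a question of the study. Visceral endoderm secretes plasma proteins and apolipoproteins, as fetal liver does later, while parietal endoderm lays down a thick basement membrane of laminin and type IV collagen. Mesoderm inside the aggregate can form heart muscle, endothelium and primitive red cells, and these lineages appear as the genes of the primitive streak and of the pluripotent state are shut off. In bulk RNA, fewer cells of a type and less RNA per cell cannot be told apart.

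The libraries held 52105966 (d10) and 47818368 (d15) counts in A9 and 96882725 (d10) and 110465060 (d15) counts in JN. The d15 A9 library stood apart in its share of the ribosomal transcript Rn45s, 7.35% against 1.92% to 2.94% in the other 3. The clones differed more than the days did. Log2 CPM correlated at r = 0.951 between the days of A9 and 0.962 between the days of JN across 13035 genes, and at 0.866 between the clones at d10 and 0.850 at d15. A 2-fold difference separated the days for 1258 genes in A9 and 1059 in JN, and the clones for 3383 genes at d10 and 3464 at d15.

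Genes that moved the same way by at least 2-fold were mostly higher at d15, and most genes that moved in opposite directions were lower at d15 in A9 and higher in JN. A gene was at least 2-fold higher at d15 in both clones for 201 of 13035 genes (1.54%) and at least 2-fold lower in both for 36 (0.276%). The change was opposite for 129 genes, 107 of them lower in A9 and higher in JN (0.821%) and 22 higher in A9 and lower in JN (0.169%). In A9 alone, 792 genes (6.08%) were 2-fold higher at d15 and 466 (3.57%) 2-fold lower. In JN these numbers were 746 (5.72%) and 313 (2.40%). Of the genes 2-fold higher in A9, 25.4% were also 2-fold higher in JN and 2.78% were 2-fold lower. Of the genes 2-fold lower in A9, only 7.73% were 2-fold lower in JN and 23.0% were 2-fold higher. Across all 13035 genes 61.5% had the same sign in both clones, and the 2 changes correlated weakly (Pearson's r = 0.19, Spearman's rho = 0.27), which describes genes that share 4 libraries and is no test.

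**Figure D1:**
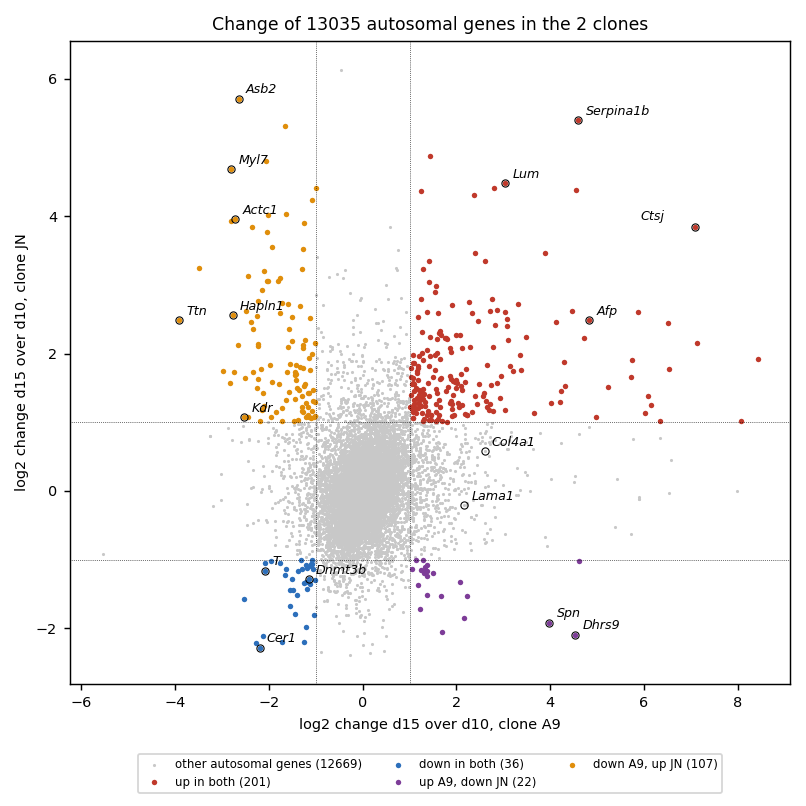
Each point is 1 of 13035 autosomal genes, placed by its log2 change from d10 to d15 in clone A9 (x axis) and in clone JN (y axis), with the 2-fold limits as dotted lines. Genes 2-fold higher in both clones (201, red) spread far to the right, and genes lower in A9 and higher in JN (107, orange) fill the upper left, while 36 (blue) and 22 (purple) genes lie in the lower corners.

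Levels are given as CPM on library sizes scaled by TMM, and changes as log2 ratios of d15 to d10 with a prior count of 2. At the limit of 2-fold, AI506816 (-1.08 in A9 and -1.01 in JN) and Jakmip2 (-1.01 and -1.29) lay just inside, and Oaf (0.998 and 1.11) and Lepr (1.59 and 0.996) just outside. The classes rest on single libraries, so that no gene has a replicate of its change within a clone. A gene of low mean can reach the minimum through the library where it is highest. Its direction in that clone then follows from the minimum. With the clone as a block, edgeR's quasi-likelihood test called 0 of 22452 transcripts at a false discovery rate (FDR) of 5%. The smallest adjusted p was 0.277, shared by several genes, and 2392 transcripts (10.7%) had an unadjusted p under 0.05, 1455 of them higher at d15 (6.48%). The same test fitted to all 11 RNA-seq libraries of the study called 82 of 24858 transcripts higher (0.33%) and 6 lower (0.0241%), and DESeq2 with the clone block 334 higher (1.49%) and 68 lower (0.303%). DESeq2 called 295 autosomal genes in all (2.26%), 139 of them among the 201 genes 2-fold higher in both clones. edgeR on all libraries called 54 (0.414%), 42 of them among the 201. These calls come from the same counts that set the class. In the text that follows "higher" and "lower" give the order of the levels.

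The difference between the clones in their day change was tested with edgeR over all 11 libraries, in which the spread came from the pairs of libraries of E9.25 ysE, E9.25 VYS mesoderm and E12.5 liver. EBs are assumed there to vary as those tissues do. The change was greater in JN than in A9 for 65 of 24858 transcripts (0.261%) and smaller for 11 (0.0443%). DESeq2 called 354 (1.42%) and 122 (0.491%). These calls depended on the ysE libraries. Without replicate A or replicate B of E9.25 ysE the count was 0 in both directions, with a smallest adjusted p of 0.0588 and 0.0582. Among autosomal genes the test called 55 (0.422%), of which 30 were in the class lower in A9 and higher in JN and 3 in the opposite class, from the same counts that set the classes.

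The markers of heart muscle and endothelium were on opposite courses in the clones, and that of basement membrane was higher at d15 in A9. Actc1 (chr2:114047282-114052875 on GRCm38.p6), the actin of the heart sarcomere, stood at 33.0 CPM at d10 and 5.02 at d15 in A9, and at 4.07 and 63.6 in JN. Kdr (chr5:75932827-75979072), the main VEGF receptor of endothelium and its progenitors, stood at 121 and 21.1 CPM in A9 and at 15.4 and 32.6 in JN. Lama1 (chr17:67697127-67822645), the laminin chain of early basement membrane, stood at 399 and 1791 CPM in A9 and at 441 and 381 in JN. Actc1 and Kdr had their 2 highest values in A9 at d10 and in JN at d15, and Lama1 was high in A9 at d15 and alike in the other 3 libraries. The change in JN minus that in A9 was 3.62 ± 0.41 (SE, adjusted p = 0.0132 by edgeR) for Kdr and -2.37 ± 0.32 (adjusted p = 0.0286) for Lama1. For Actc1 it was larger, 6.69 ± 1.28, and did not pass with edgeR (adjusted p = 0.107). Over the alternative fits its adjusted p ran from 1.21e-05, with DESeq2, to 0.358 with edgeR.

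**Figure D2:**
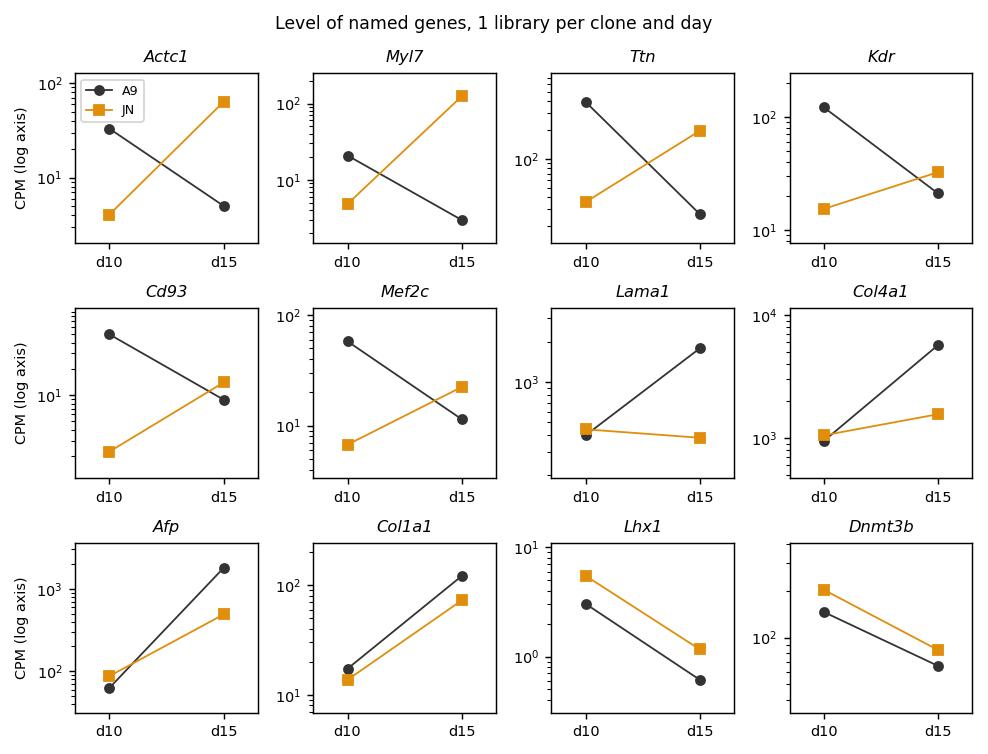
CPM (log axis) of 12 genes at d10 and d15, 1 library per point, with A9 as black circles and JN as orange squares. Actc1, Myl7, Ttn, Kdr, Cd93 and Mef2c cross between the clones, Lama1 and Col4a1 are raised most in A9 at d15, and Afp, Col1a1, Lhx1 and Dnmt3b move the same way in both.

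Secreted proteins of visceral and hepatic endoderm were among the genes higher in both clones. Of 29 measured genes of that list, 8 were 2-fold higher in both clones (against 1.54% of all genes). In A9 10 were 2-fold higher and in JN 13 (against 6.08% and 5.72%), and none was 2-fold lower in either. The list's median change was 0.12 in A9 and 0.72 in JN, against 0.01 and 0.00 over all genes. Afp, the fetal plasma protein alpha-fetoprotein, stood at 63.0 CPM at d10 and 1791 at d15 in A9, and at 87.6 and 489 in JN. Trf, the iron carrier transferrin, stood at 1.69 and 44.8 in A9 and at 10.1 and 47.3 in JN. Both d15 libraries lay above both d10 libraries for each of them. The same order held for Apoa2, an apolipoprotein of high-density lipoprotein, at 8.93 and 76.2 CPM in A9 and 4.34 and 20.1 in JN. It held also for the fibrinogen beta chain Fgb, at 29.3 and 128 in A9 and 12.9 and 54.8 in JN. Other genes of the list did not follow, plasma apolipoproteins among them, and only 15 of the 29 were higher at d15 in A9 against 24 in JN. Named after their values were seen, Apob changed by -0.33 in A9 and 0.78 in JN, Apoc2 by -0.53 and 1.73, and Apoe by -0.05 and 0.44. Hnf4a, a master regulator of hepatic genes, was at 45.6 and 45.5 CPM in A9 and 16.8 and 24.5 in JN, and the endoderm factor Foxa2 at 17.4 and 18.8 in A9 and 18.7 and 17.4 in JN, named here after their values were seen. The endocytic receptor Lrp2, named likewise, was lower in both clones, by 0.81 in A9 and 0.89 in JN on the log2 scale.

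Other plasma proteins led the class. Serpina1b, of the alpha-1-antitrypsin family of protease inhibitors, stood at 0.148 and 4.19 CPM in A9 and at 0.0416 and 2.83 in JN, changes of 4.60 and 5.40. Afm, the albumin relative afamin, stood at 0.148 and 4.06 in A9 and at 0.0104 and 0.732 in JN, where d10 held 1 count and the ratio was 70.3 with a 95% counting interval of 12.3 to 2812. Serpinb6b, an intracellular serpin, was at 3.45 and 34.5 CPM in A9 and 1.66 and 11.1 in JN. All 3 were lowest in the d10 library of JN and highest in the d15 library of A9. Serpina1b and Afm reached the minimum only through that d15 library, so that their direction in A9 follows from the minimum. Serpina1b has close relatives in the genome, and whether reads are shared among them was not tested. In the gut and pancreatic list, Tff3, a peptide of mucous epithelium, was at 4.61 and 28.1 CPM in A9 and 1.49 and 15.3 in JN, and Fabp2, a fatty acid binding protein of the intestine, at 1.61 and 3.69 and at 0.260 and 1.62. These were the only 2 of 10 measured genes of that list that were 2-fold higher in both clones (against 1.54% of all genes). Fabp2 would not have reached the minimum without the d15 library of A9. The other 8 were all lower at d15 in A9, 3 of them by 2-fold, and 2 were 2-fold lower in JN, so that the list's medians were -0.42 in A9 and -0.16 in JN.

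Many genes of fibrillar matrix were higher in both clones. Of 32 measured genes, 9 were 2-fold higher in both (against 1.54% of all genes), 1 was opposite by 2-fold and none was 2-fold lower in both, with a median change of 0.96 in A9 and 0.86 in JN. Lum, the collagen-binding proteoglycan lumican, stood at 9.49 and 78.4 CPM in A9 and at 1.53 and 34.7 in JN. Dcn, the related decorin, stood at 3.91 and 68.3 in A9 and at 2.48 and 13.8 in JN. Col1a1, a chain of type I collagen, stood at 17.3 and 122 in A9 and at 13.7 and 72.8 in JN. For all 3 the d15 libraries lay above both d10 libraries and the levels in A9 exceeded those in JN on both days. Col6a3, of the microfibrillar collagen VI, was at 5.63 and 59.2 CPM in A9 and 2.82 and 9.65 in JN. Fbn1, the microfibril protein fibrillin 1, went the other way in A9, from 118 to 42.6 CPM, with 26.5 and 53.9 in JN. In all, 4 of the 32 were 2-fold lower in A9 and 1 in JN, and 9 had changes of opposite sign. Named after their values were seen, Fbn2 changed by -1.65 in A9, Vcan by -1.47 and Pdgfrb by -1.30, and Col5a3 by -1.88 in JN. In the fit of all 11 libraries edgeR called 7 of the 32 genes higher at d15, against 54 of all 13035 genes in either direction (0.414%). The adjusted p of that fit was 0.00583 for Lum, 0.0196 for Col1a1, 0.0211 for Dcn and 0.0325 for Col6a3. With edgeR on the EB libraries alone, with the clone as block, none passed. The adjusted p there was 0.277 for Lum and Col1a1, 0.373 for Dcn and 0.407 for Col6a3. These genes were named for the size of the same change, so that their p-values are a description.

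Of 20 macrophage genes, 6 passed the minimum, and 3 of them were 2-fold higher in both clones (against 1.54% of all genes). Csf1r, the receptor for the growth factor of macrophages, stood at 2.98 and 18.8 CPM in A9 and at 1.51 and 5.43 in JN. Emr1, the macrophage surface protein F4/80, stood at 0.333 and 2.46 in A9 and at 0.0520 and 1.62 in JN, and the Fc receptor Fcgr3 at 4.93 and 11.7 and at 1.01 and 2.65. The changes of the other 3 had opposite signs in the clones. Named after their values were seen, Cd68 changed by 1.04 in A9 and -0.02 in JN, Laptm5 by 1.07 and -0.42, and Mrc1 by -0.10 and 2.12. The pan-leukocyte gene Ptprc and the complement genes C1qa, C1qb and C1qc fell below 1 CPM. Entpd1, an ectonucleotidase of endothelium and immune cells, was at 2.06 and 14.1 CPM in A9 and at 0.156 and 1.24 in JN. Of 8 mesothelial genes, Upk3b (2.87 and 7.74 CPM in A9, 0.281 and 2.51 in JN) and Upk1b (2.26 and 5.50, 0.843 and 4.28) were 2-fold higher in both clones, and Lrrn4 (17.6 and 5.19, 12.6 and 6.04) was 2-fold lower in both. Tac2, which encodes the peptide neurokinin B, was at 1.09 and 8.16 CPM in A9 and 0.177 and 1.23 in JN. Entpd1 and Tac2 reached the minimum only through the d15 library of A9, and Emr1 only with the d15 libraries of both clones.

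Placental and interferon-induced genes completed the 10 genes with the greatest shared increase. Ctsj, a cysteine protease of the placenta, stood at 1.24 and 171 CPM in A9 and at 0.0624 and 1.24 in JN. Prl7d1, of the placental prolactin family, stood at 0.482 and 11.1 in A9 and, in JN, at 0 and 15 counts, which is at least 4.29-fold higher against a floor of 3 counts in the library. Ifit3, an RNA-binding antiviral protein induced by interferon, stood at 0.834 and 12.8 in A9 and at 0.0936 and 1.29 in JN. In JN all 3 stayed below 2 CPM. Ctsj, Prl7d1, Ifit3, Afm, Serpina1b, Entpd1 and Tac2 reached the minimum through the d15 library of A9 alone. Emr1 reached it only with the d15 libraries of both clones. The direction of these genes in A9 therefore follows from the minimum, and their place in this order supports nothing. Ctsj and Prl7d1 belong to families of related genes, and whether reads are shared among the copies was not tested. Of the 201 genes, 12 had a library with 0 to 3 counts and 11 had under 20 counts in JN even at d15.

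Genes of the primitive streak and its organizers were among those lower in both clones. Of 14 measured streak genes 4 were 2-fold lower in both (against 0.276% of all genes). Cer1 and Gsc, among these 4, reached the minimum only with the d10 libraries of both clones. Their direction follows from the minimum, and their part in the count supports nothing. In each clone 7 were 2-fold lower (against 3.57% in A9 and 2.40% in JN). None was 2-fold higher in either, and the medians were -1.10 in A9 and -1.004 in JN. Lhx1, a homeobox factor of the organizer, stood at 3.04 and 0.611 CPM in A9 and at 5.49 and 1.16 in JN. Cer1, the secreted inhibitor Cerberus, stood at 1.39 and 0.283 in A9 and at 2.88 and 0.571 in JN. T, the streak and notochord factor Brachyury, stood at 13.5 and 3.16 in A9 and at 27.5 and 12.3 in JN. JN was above A9 on each day for all 3, and both d15 libraries lay below both d10 libraries. Gsc, the organizer factor Goosecoid, was at 1.48 and 0.632 CPM in A9 and 2.15 and 0.526 in JN. Eomes, which is also a streak factor and is named after its values were seen, was at 12.8 and 11.1 in A9 and at 7.72 and 3.70 in JN.

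Of 26 pluripotency genes 2 were 2-fold lower in both clones, against 0.276% of all genes. Dnmt3b, a DNA methyltransferase high in the epiblast, stood at 146 and 65.8 CPM in A9 and at 203 and 83.2 in JN. Fgf5, a growth factor of the primed epiblast, stood at 9.97 and 3.77 in A9 and at 12.6 and 4.37 in JN. Both d15 libraries lay below both d10 libraries in each case. Dnmt3b was 1 of 2 genes of its class that edgeR called over all 11 libraries (adjusted p = 0.0190). With edgeR on the EB libraries alone, with the clone as block, Dnmt3b did not pass (adjusted p = 0.277). It was named for the same change. Over all 26 genes the median was 0.37 in A9 and -0.78 in JN, with 19 genes higher at d15 in A9 and 2 in JN, and none passed the test of the difference between the clones, the smallest adjusted p with edgeR being 0.246, for the ES cell factor Esrrb. Pou5f1, the core factor Oct4, was at 84.7 and 109 CPM in A9 and at 124 and 58.6 in JN, and is named after its values were seen. Utf1, a chromatin factor of ES cells, was the list's 1 gene with opposite changes of 2-fold in both clones, at 0.685 and 1.81 in A9 and at 8.53 and 3.60 in JN.

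The other genes with the greatest shared decrease were of mixed function and low level. Samd3, a SAM domain protein, stood at 1.63 and 0.480 CPM in A9 and at 9.02 and 1.95 in JN. Ptprv, a receptor-type phosphatase, stood at 2.09 and 0.698 in A9 and at 6.42 and 1.98 in JN. Ltb, the cytokine lymphotoxin beta, held 20 and 3 counts in A9, a ratio of 0.177 with a 95% counting interval of 0.0336 to 0.595, and 3.25 and 0.732 CPM in JN. All 3 were higher in JN than in A9 on each day. Gckr, the regulator of glucokinase, changed by -2.52 in A9 and -1.57 in JN, the matrix metalloprotease Mmp9 by -1.44 and -1.79, and Aadat, an enzyme of lysine breakdown, by -1.55 and -1.45. The uncharacterised 9530091C08Rik changed by -1.49 and -1.44. Ltb would not have reached the minimum without the d10 library of JN. Gckr, Mmp9, Aadat, 9530091C08Rik, Cer1 and Gsc reached it only with the d10 libraries of both clones. The direction of Ltb in JN, and of the others in both clones, follows from the minimum. The class had median levels of 3.10 and 1.40 CPM in A9 and 5.39 and 1.87 in JN, against 16.4, 17.1, 18.3 and 18.8 for all genes.

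Heart muscle genes took opposite courses in the clones. Of 22 measured sarcomere and heart muscle genes, 13 were 2-fold lower at d15 in A9 and 2-fold higher in JN (against 0.821% of all genes). In both clones 2 were 2-fold higher (against 1.54%), and all 22 were higher in JN. Only 3 of the 22 were higher in A9. The medians were -1.48 in A9 and 2.60 in JN, and the summed level of the list went from 1777 to 1052 CPM in A9 and from 621 to 1634 in JN. The promoters of 6 of the 22 genes held a CArG box, the sequence bound by serum response factor, between 250 bases before and 50 bases after the start. That was 27.3%, against 1.59% of the 10279 measured genes with a RefSeq promoter. The share was 7.79% of 77 genes lower in A9 and higher in JN and 4.90% of 143 genes higher in both clones. Either strand was searched, and the motif was CC, then A or T at 6 positions, then GG. Shown are the boxes of Actc1, Myl7 and Myom1 of the list and of Asb2 outside it, which took opposite courses, and of Myl3, which did not. Each is written on the gene's own strand from GRCm38.p6, with the CArG box in capitals.
Actc1, chr2:114052903-114052932, minus strand: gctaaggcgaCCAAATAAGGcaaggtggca
Myl7, chr11:5898824-5898853, minus strand: ccattcctctCCTTATTTGGgcctctgggt
Asb2, chr12:103356046-103356075, minus strand: agaaacatacCCATATATGGgctccatgtc
Myom1, chr17:71019448-71019477, plus strand: gccttcctggCCATAAAAGGctggctgtgg
Myl3, chr9:110763583-110763612, plus strand: gagccaatgcCCTTTTATGGccctgtccct
The first base of the box lay 47 bases before the start in Actc1, 61 in Myl7, 64 in Asb2, 99 in Myom1 and 85 in Myl3. A match of letters is a description and shows no binding, and Myl3 holds a box without sharing the opposite course.

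Myl7, the atrial regulatory myosin light chain, stood at 20.8 and 2.97 CPM in A9 and at 4.83 and 125 in JN. Ttn, the giant spring protein titin, stood at 393 and 26.2 in A9 and at 35.2 and 197 in JN. Smyd1, a methyltransferase needed for sarcomere assembly, stood at 20.7 and 1.83 in A9 and at 2.12 and 20.3 in JN. In all 3 the d10 library of A9 and the d15 library of JN were high and the other libraries low. Asb2, a ubiquitin ligase subunit of heart and muscle, was at 1.91 and 0.283 CPM in A9 and 0.0936 and 6.23 in JN, and the kinase Alpk2 at 3.96 and 0.545 and at 0.135 and 2.43. Asb2 reached the minimum only through the d15 library of JN, and Alpk2 only with the d10 library of A9. The direction of each in that clone follows from the minimum. The difference between the clones passed the test for Myl7 (7.51 ± 0.90, adjusted p = 0.0170 with edgeR) and Asb2 (8.79 ± 1.05, adjusted p = 0.0160). It did not for Ttn (6.40 ± 1.21) and Smyd1 (6.77 ± 1.28), each at an adjusted p of 0.105 with edgeR. Exceptions to the pattern were Myl3, the ventricular essential light chain, at 14.6 and 53.7 CPM in A9 and 12.05 and 37.5 in JN, and Nppb, the natriuretic peptide gene, at 0.797 and 3.10 and at 1.13 and 3.48. Both were higher at d15 in both clones, as was Mybpc3, a myosin-binding protein named after its values were seen, at 27.4 and 41.3 CPM in A9 and 3.45 and 49.8 in JN.

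Regulators of heart development followed in part. Of 12 measured, 3 took opposite courses by 2-fold in both clones (against 0.821% of all genes), and the medians were -0.66 in A9 and 1.32 in JN. Mef2c, a factor of heart and vessel development, stood at 57.9 and 11.4 CPM in A9 and at 6.73 and 22.4 in JN, a difference of 4.09 ± 0.40 between the clones (adjusted p = 0.00800 with edgeR). Hand2, a bHLH factor of the heart fields, stood at 31.7 and 14.1 in A9 and at 2.90 and 7.83 in JN. Myocd, the serum response factor partner myocardin, stood at 4.82 and 0.589 in A9 and at 1.82 and 6.15 in JN. Mef2c and Hand2 were higher in A9 at d10 than in either JN library. Smooth muscle had 1 such gene of 11, Synpo2, an actin-bundling protein, at 11.9 and 4.84 CPM in A9 and 0.426 and 4.24 in JN. Skeletal muscle had none of 5, with Mylpf at 4.22 and 3.69 in A9 and 9.10 and 6.27 in JN and Acta1 at 1.41 and 1.53 and at 10.1 and 6.85.

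Endothelial genes were lower at d15 in A9 and mostly higher in JN. Of 20 measured, 6 took opposite courses by 2-fold (against 0.821% of all genes). In A9 12 were 2-fold lower and in JN 10 were 2-fold higher (against 3.57% and 5.72%), with medians of -1.76 and 0.97. Cd93, a surface lectin of endothelium that is not on the list, stood at 49.7 and 8.85 CPM in A9 and at 2.25 and 14.0 in JN. Tie1, an orphan receptor of the angiopoietin system, stood at 13.9 and 2.64 in A9 and at 1.64 and 9.16 in JN. Cldn5, the tight junction claudin of endothelium, stood at 5.52 and 1.16 in A9 and at 0.687 and 4.80 in JN. As in heart muscle, the d10 library of A9 and the d15 library of JN were the highest. The difference between the clones was 5.13 ± 0.38 for Cd93, 4.88 ± 0.42 for Tie1 and 5.07 ± 0.50 for Cldn5, each at an adjusted p of 0.00800 with edgeR. Emcn, the sialoglycoprotein endomucin, was at 3.93 and 0.938 CPM in A9 and 0.333 and 2.97 in JN. Not every endothelial gene did so. Flt1, a VEGF receptor that trophoblast also makes, was at 94.8 and 134 in A9 and at 48.9 and 47.4 in JN, and the adhesion molecule Cdh5 at 36.9 and 46.7 and at 2.04 and 9.49, both named after their values were seen.

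Primitive red cell genes were lower in A9 by more than they were higher in JN. Of 8 measured, 7 were 2-fold lower in A9 (against 3.57% of all genes), 7 were higher in JN and 1 of them by 2-fold, with medians of -2.31 and 0.77. Hbb-bh1, an embryonic beta globin, stood at 17.4 and 3.82 CPM in A9 and at 23.8 and 48.0 in JN, and its difference between the clones did not pass the test (3.21 ± 0.71, adjusted p = 0.162 with edgeR). The difference passed for 3 of the 8 genes (against 0.422% of all autosomal genes), named after their values were seen. They were the embryonic alpha globin Hba-x (3.23 ± 0.33, adjusted p = 0.00844 with edgeR), the embryonic beta globin Hbb-y (2.81 ± 0.40, 0.0348) and the blood and vessel factor Tal1 (2.33 ± 0.34, 0.0413). Unlike the heart genes, Hbb-bh1 was higher in JN on both days. In RPKM (reads scaled by transcript length and library size, the authors' unit) Hbb-bh1 had 24.4 and 5.01 in A9 and 32.6 and 71.0 in JN. These levels were low beside E9.25 VYS mesoderm, where it had 18838 RPKM against 479.9 in ysE. The near-identical Hba-a1 and Hba-a2 had the same counts and form 1 observation, but enter the counts and medians above as separate genes. They reached the minimum only with the d15 library of JN. Slc4a1, also of the list, reached it only with the d10 library of A9. The direction of each of these genes in the clone named follows from the minimum.

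Beyond the heart and vessels, 2 of 8 measured cartilage and bone genes and 3 of 12 Hox genes were in the same class (against 0.821% of all genes). The cartilage and bone list had medians of -0.69 in A9 and 0.24 in JN. Of its 8 genes 3 were higher at d15 in A9 and 4 in JN. Hapln1, a link protein of cartilage matrix and of the embryonic heart, stood at 37.8 and 5.52 CPM in A9 and at 3.04 and 18.0 in JN (difference 5.36 ± 0.52, adjusted p = 0.00800 with edgeR). Col9a1, a cartilage collagen, stood at 21.6 and 9.16 in A9 and at 2.60 and 12.02 in JN. The patterning gene Hoxb2 stood at 13.7 and 5.34 in A9 and at 0.832 and 2.34 in JN. All were highest in A9 at d10. Of 12 measured Hox genes 3 took opposite courses, Hoxd4 (3.71 and 1.37 CPM in A9, 0.302 and 1.04 in JN) among them. All 12 were higher at d15 in JN and 5 in A9.

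The clones differed in the level of this class at d10. Its 107 genes had median levels of 8.39 and 2.64 CPM in A9 and 1.64 and 7.08 in JN. At d10 A9 was the higher clone for 106 of them, and by 2-fold for 97 (90.7%, against 11.5% of all genes). At d15 JN was the higher clone by 2-fold for 56 (52.3%, against 14.9% of all genes). In the class higher in both clones, A9 was likewise the higher clone at d10 for 176 of 201 genes, and by 2-fold for 120 (59.7%). As the classes were chosen on these levels, the shares are a description.

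Levels in yolk sac layers were not used to form the classes. Of 63 genes of the class with at least 1 RPKM in either layer at E9.25, 57 (90.5%) were at least 2-fold higher in VYS mesoderm than in ysE with no overlap of the 2 libraries each, and 2 (3.17%) were higher in ysE. Among all 10790 genes that passed, 1786 (16.6%) were higher in mesoderm and 1057 (9.80%) in ysE. With no minimum, an alternative chosen after the data were seen, 86 of all 107 genes (80.4%) were higher in mesoderm, against 19.98% of 13031 genes. The median log2 ratio of mesoderm to ysE above the minimum was 4.002 in the class and 0.16 over all genes. The other 44 of the 107 genes were below the minimum in both layers, heart genes such as Myl7 (0.602 RPKM in mesoderm) among them, while Kdr had 47.0 in mesoderm and 2.14 in ysE. Genes higher in both clones lay on both sides, 50 of 130 (38.5%) higher in mesoderm and 53 (40.8%) in ysE, and with no minimum 82 of 201 (40.8%) in mesoderm and 56 (27.9%) in ysE. Afp had 6349 RPKM in ysE and 978 in mesoderm, and Lum 235 in mesoderm and 5.77 in ysE. Only 11 genes lower in both clones and 3 higher in A9 and lower in JN reached the minimum.

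**Figure D3:**
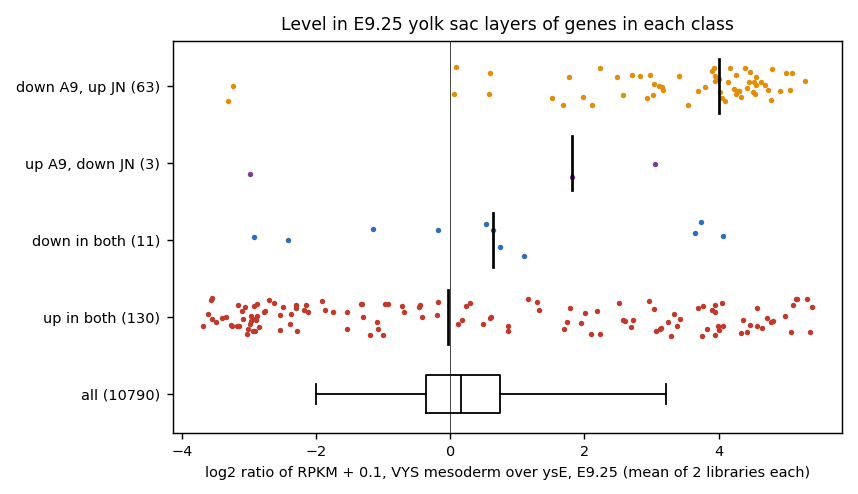
The log2 ratio of E9.25 VYS mesoderm to E9.25 ysE (RPKM plus 0.1, x axis) for each class of genes (points, with the median as a bar) and for all 10790 genes with at least 1 RPKM in a layer (box, whiskers at the 5th and 95th percentiles). The class lower in A9 and higher in JN lies to the right, with a median of 4.002, and the class higher in both clones spreads to both sides of 0.

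The 22 genes higher in A9 and lower in JN were of low level and shared little. Spn, the leukocyte sialoglycoprotein CD43, stood at 0.815 and 13.2 CPM in A9 and at 1.62 and 0.410 in JN. Dhrs9, a retinol dehydrogenase, stood at 0.222 and 5.71 in A9 and at 0.541 and 0.107 in JN. Amica1, an adhesion molecule of leukocytes and epithelia, stood at 0.741 and 3.40 in A9 and at 0.967 and 0.250 in JN. In each the d15 library of A9 was far above the other 3. None of these genes would have reached the minimum without that library, so that their direction in A9 follows from the minimum. The clones differed by -5.99 ± 0.53 for Spn (adjusted p = 0.00800) and by -6.98 ± 0.73 for Dhrs9 (adjusted p = 0.00846 with edgeR). The somite factor Tcf15 changed by 1.68 in A9 and -1.53 in JN, the bHLH factor Tcf23 by 2.22 and -1.53, and the skin protein Dmkn by 2.08 and -1.33. Srrm4, a splicing factor of neurons, changed by 1.37 and -1.51, and A930011O12Rik by 1.69 and -2.06. Dmkn, Srrm4 and A930011O12Rik too would have fallen below the minimum without the d15 library of A9. Of 24 measured neural genes, Elavl3, an RNA-binding protein of neurons, was in this class (1.41 and 3.71 CPM in A9, 2.02 and 0.883 in JN). The vasodilator peptide Adm, on the hypoxia list, stood at 2.67 and 6.69 CPM in A9 and at 6.24 and 2.78 in JN.

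Basement membrane genes were higher at d15 in A9, with smaller differences in JN. Of 18 measured genes of parietal endoderm and basement membrane, 15 were 2-fold higher at d15 in A9 and none in JN (against 6.08% and 5.72% of all genes). All 18 were higher in A9 and 11 in JN, with medians of 1.995 and 0.10. Their summed level went from 5444 to 22679 CPM in A9 and from 4376 to 5579 in JN. Col4a1, a chain of type IV collagen, stood at 945 and 5722 CPM in A9 and at 1049.6 and 1562 in JN, and Sparc, a secreted matrix protein abundant in parietal endoderm, at 865 and 3904 and at 417 and 702. The d15 library of A9 was above the other 3 for both. The clones differed by -2.01 ± 0.30 for Col4a1 (adjusted p = 0.0440 with edgeR), and Sparc did not pass (-1.41 ± 0.33, adjusted p = 0.186). Lamc1 is a laminin chain that also passed (-2.41 ± 0.31, adjusted p = 0.0233 with edgeR) and is named after its values were seen. With Lama1 and Col4a1 it makes up the 3 calls of the list, against 0.422% of all autosomal genes. The d15 A9 library is also the one with 7.35% Rn45s. Without Rn45s, mitochondrial and histone transcripts the difference was -1.96 for Col4a1 (adjusted p = 0.0452 with edgeR) and -2.32 for Lama1 (adjusted p = 0.0277 with edgeR). That refit only rescales the other transcripts, and whether this library is unusual in other ways was not tested.

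**Figure D4:**
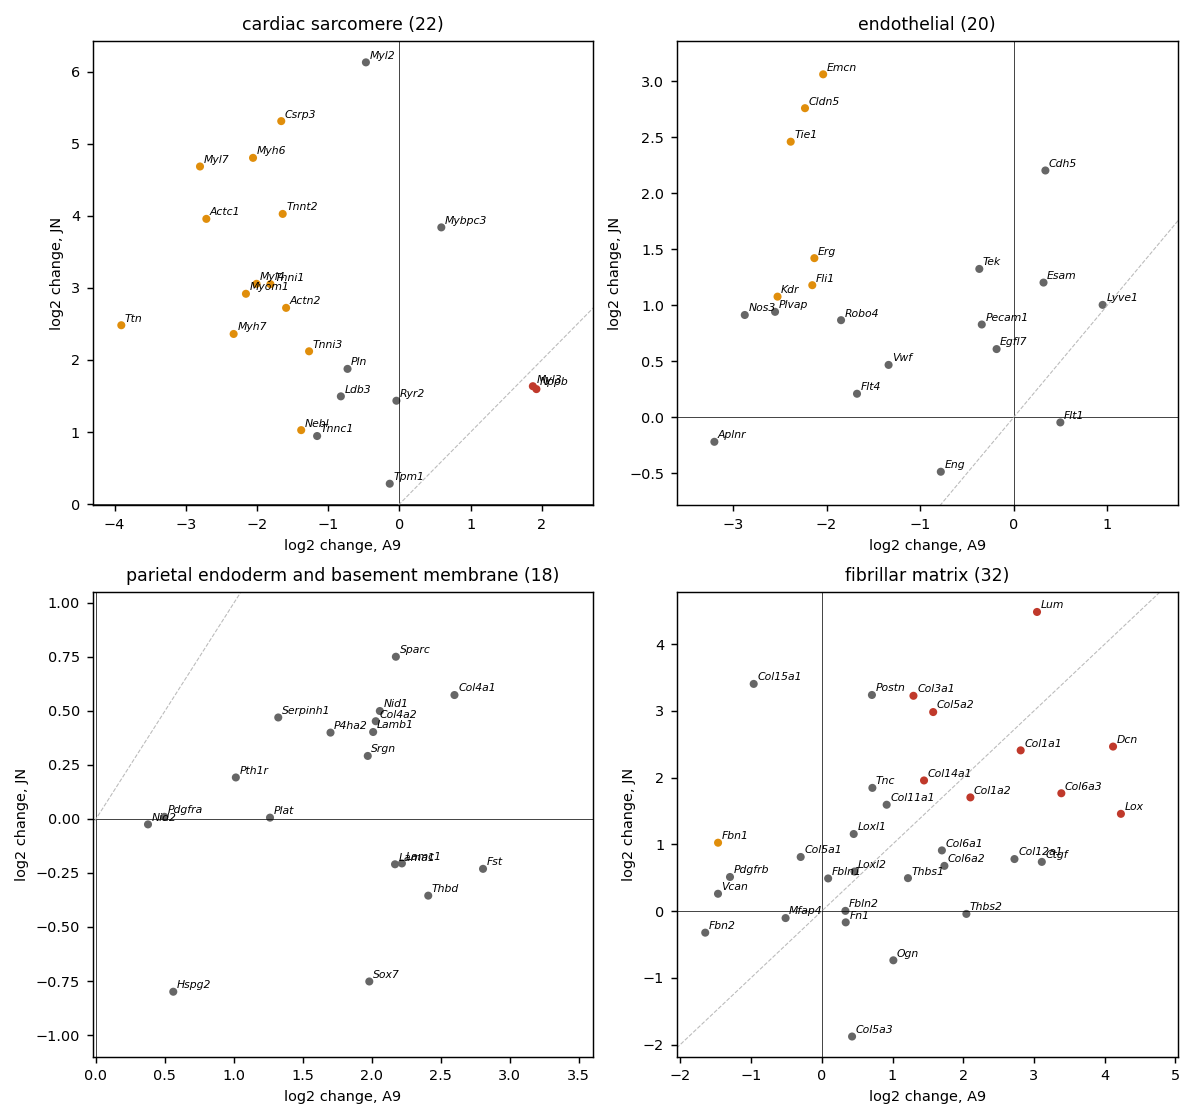
Change from d10 to d15 (log2) in A9 (x axis) and JN (y axis) of each measured member of 4 gene lists, coloured by class, with equal change as a dashed line. Most heart muscle genes lie above the line at the upper left, with Myl3 and Nppb below it at the right, endothelial genes lie above it except Flt1, basement membrane genes below it to the right, and fibrillar matrix genes on both sides of it.

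Several trophoblast genes were high in the d15 library of A9. Tpbpa, Elf5 and Prl3d1 reached the minimum through that library alone, so that a count or median over the 7 measured genes supports nothing. Tpbpa, a spongiotrophoblast protein, was at 1.02 and 43.5 CPM in A9 and 0.0624 and 0.0357 in JN, and the trophoblast factor Elf5 at 0.0371 and 5.82 and at 0.146 and 0.143, both named after their values were seen. Prl3d1, placental lactogen, was at 0.0741 and 14.1 CPM in A9 and, in JN, at 0 and 10 counts, which is at least 2.86-fold higher.

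The remaining lists changed less or without a common course. Cell cycle genes had none of 28 past 2-fold, with medians of -0.34 in A9 and -0.05 in JN. Mki67, a marker of dividing cells, was at 773 and 567 CPM in A9 and 251 and 261 in JN. Top2a, a topoisomerase of dividing cells, was at 1289 and 1042 in A9 and 1045 and 1138 in JN. Cholesterol synthesis was lower in 21 of 22 genes in A9 and 18 in JN (medians -0.74 and -0.33), with Hmgcs1, an early enzyme of the pathway, at 409 and 211 CPM in A9 and 342 and 208 in JN. All 14 immediate early and heat shock genes were higher at d15 in A9 and 10 in JN (medians 0.81 and 0.35), while 3 were 2-fold lower in JN. Atf3, an early stress factor and the 1 gene 2-fold higher in both, was at 27.4 and 62.4 CPM in A9 and 15.3 and 36.9 in JN. Of 14 amino acid and ER stress genes 5 were higher in A9 and 2 in JN (medians -0.37 and -0.42), with Asns, asparagine synthetase, at 158 and 118 and at 297 and 180. Imprinted genes, which are expressed from 1 parental copy, had 8 of 27 2-fold higher in JN (against 5.72% of all genes) and none in A9 (medians 0.88 and -0.20). The growth-related RNA H19 was at 2780.4 and 5273 CPM in A9 and 278 and 571 in JN, and Peg3 at 1746 and 984 and at 372 and 698. Germline genes, neural crest genes and epithelial genes had medians of 0.65 and -0.58, 0.03 and 0.51, and 0.56 and 0.16 in A9 and JN. No gene of these 3 lists was in any of the classes.

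**Figure D5:**
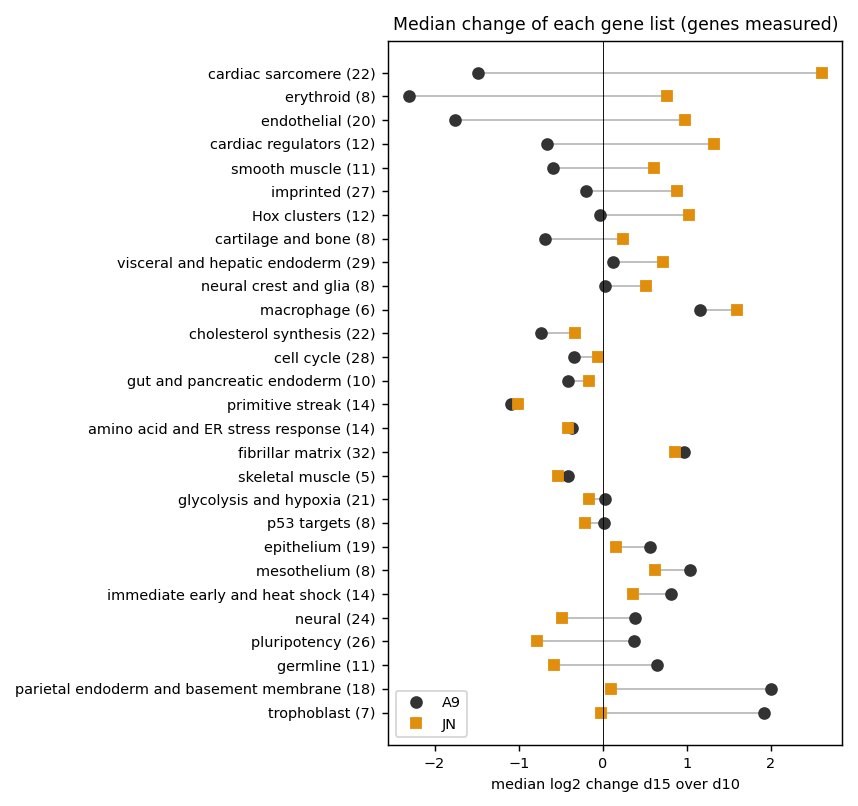
Median log2 change from d10 to d15 of each gene list in A9 (black circles) and JN (orange squares), sorted by the difference JN minus A9. Heart muscle (-1.48 and 2.60), erythroid and endothelial lists are at one end, with A9 below 0 and JN above, and the basement membrane list (1.995 and 0.10) is near the other, with fibrillar matrix and streak lists alike in the clones.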

How the data were processed

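Ribosomal RNA-depleted total RNA was sequenced. Per the labels and methods, the authors aligned reads with GSNAP to mm10 and deposited read counts per RefSeq transcript and RPKM values, scaled by transcript length and library size. Counts were used as deposited. RPKM served only for levels in tissues (pseudocount 0.1) and as an alternative.

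Where a gene had several transcripts, the one with most counts on average in the 4 cystic EB libraries stood for it. The members and gene lists were chosen with earlier results of these data known. Named genes are the 3 markers, the 10 genes with the largest shared increase and the 10 with the largest shared decrease (by the smaller of both clones' changes), the 8 with the largest opposite change in each direction, and for each list up to 4 same-way and 3 opposite members or else its most abundant ones. Others are said to be named after their values were seen. Some genes that meet this rule are not reported here.

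Library sizes were scaled by TMM (edgeR 4.0.16, R 4.3.3). The day was tested by edgeR's quasi-likelihood test with the clone as block and Benjamini-Hochberg adjustment, leaving 1 residual degree of freedom. The difference between clones was fitted to all 11 libraries. DESeq2 1.42.0 was an alternative. Both days of a replicate come from the same ES clone, and their deviations from the day means correlated at r = 0.75 across 13035 genes. Scripts were tested on simulated counts. Libraries may differ technically as well as biologically, so p-values measure only the spread between these samples. In the test of the difference between clones, that spread is of the E9.25 ysE, E9.25 mesoderm and liver pairs, with none from EBs. The SE given with a difference was derived from its fitted value and its test statistic. Counting intervals and floors cover counting error only.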

Additional observations from a re-analysis of the deposited data

Results flagged for a closer look

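The change from d10 to d15 differed between the clones, by edgeR's test of the difference itself over all 11 libraries, for 12 named genes. On the log2 scale the change in JN exceeded that in A9 by 8.79 for Asb2, 7.51 for Myl7, 5.36 for Hapln1, 5.13 for Cd93, 5.07 for Cldn5, 4.88 for Tie1, 4.09 for Mef2c and 3.62 for Kdr. It was lower in JN, with a difference of -6.98 for Dhrs9, -5.99 for Spn, -2.37 for Lama1 and -2.01 for Col4a1. Dhrs9 and Spn reached the minimum of 1 CPM only through the d15 library of A9, and Asb2 only through that of JN. The direction of each in that clone follows from the minimum. Adjusted p-values from edgeR ran from 0.00800 to 0.0440. Without either library of E9.25 ysE none of the 12 passed, and the highest adjusted p of any alternative was 0.195, for Col4a1. Apart from Kdr, Lama1 and Col4a1, these genes were named for large opposite changes in the same counts. A call on such a gene is a description and no separate support. Each clone has 1 library per day, so that the spread was that of the E9.25 ysE, E9.25 mesoderm and liver pairs. Clone, sex and library protocol cannot be told apart.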

How the results depend on the processing

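The day test called 0 transcripts with and without the replicate block (pairing by clone), but 82 higher and 6 lower over all 11 libraries and 334 and 68 with DESeq2. Leaving out 1 EB library in the fit of all libraries gave 106 to 146 higher and 9 to 50 lower. Without d10 replicate A these were 130 and 9, without d10 replicate B 121 and 50, without d15 replicate A 146 and 9, and without d15 replicate B 106 and 47. A clone then keeps a lone library, assumed to vary like the other groups. The difference between clones (65 and 11) became 166 and 38 with no filter on low counts, 354 and 122 with DESeq2, and 0 to 280 and 0 to 71 when 1 tissue library was left out: 0 and 0 without either ysE library, 277 to 280 and 70 to 71 without liver, and 23 lower without either mesoderm library. In the order up in both, down in both, up in A9 and down in JN, and down in A9 and up in JN, the classes held 601, 242, 162 and 290 genes at 1.5-fold, 33, 3, 1 and 24 at 4-fold, 405, 205, 140 and 264 with no minimum CPM, 93, 13, 5 and 54 at a minimum of 5 CPM, and 47, 3, 1 and 40 with RPKM plus 1. RPKM plus 0.1 gave 15 down in both and 9 up in A9 and down in JN. The correlation of the changes was 0.122 with no minimum CPM. The cause of these shifts was not tested, beyond the number of genes each setting admits. With exon-part counts 181 of 201, 22 of 36, 14 of 22 and 96 of 107 genes kept their class. Summed counts moved the median of all genes in A9 to -0.10, and RPKM plus 0.1 that in JN to 0.11. List medians near 0 changed sign, an alternative chosen after seeing the data. With summed counts, RPKM plus 0.1 and exon-part counts, neural crest in A9 was -0.081, -0.061 and -0.060, and trophoblast in JN 0.0029, 0.028 and 0.107. Cell cycle in JN was 0.060 with RPKM plus 0.1 and 0.023 with exon-part counts. With summed counts and RPKM plus 0.1, glycolysis in A9 was -0.091 and -0.071 and p53 targets -0.096 and -0.076. Hox genes in A9 were at 0.255 with exon-part counts. No gene named by the rule changed direction in the settings run. Several placental genes had under 20 counts in both JN libraries, which limits their changes there.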

Other observations

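Interferon-induced genes were among those higher at d15 in both clones. These families were chosen after their values were seen, so their counts are a description. All 3 measured Ifit genes were 2-fold higher in both clones (against 1.54% of all genes). Their summed level went from 17.1 to 60.0 CPM in A9 and from 2.74 to 12.3 in JN. Ifit1, an antiviral RNA-binding protein, stood at 1.96 and 16.8 CPM in A9 and at 0.322 and 1.82 in JN. Rsad2, the antiviral enzyme viperin, stood at 7.08 and 34.7 in A9 and at 0.967 and 4.203 in JN. Both were low in JN and highest in A9 at d15. Of 4 measured Oas genes, RNA sensors of the antiviral response, all were 2-fold higher in A9 and 1 in both clones. Over all genes these shares were 6.08% and 1.54%. Of 9 Gbp genes, GTPases induced by interferon gamma, 6 were 2-fold higher in A9 and 2 in both (against 6.08% and 1.54%). At any size of change, 4 of the 9 were higher in both clones. The summed level of all 9 went from 38.6 to 91.0 CPM in A9 and from 34.3 to 31.3 in JN. Ifit3, Oas1a, Oas1b and Gbp10 would not have reached the minimum without the d15 library of A9, so that their direction in A9 follows from it.

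The interferon-stimulated response element was searched as its core, GAAA repeated after any 2 bases, on either strand in the RefSeq promoters. It was found in 9 of 143 genes higher in both clones (6.29%), 5 of 77 genes lower in A9 and higher in JN (6.49%) and 355 of 10279 measured genes (3.45%). The element farthest from the start in Ifit1 and Ifit3 and that of Rsad2 are shown on the gene's strand from GRCm38.p6, with the element, which reads on the opposite strand, in capitals.
Ifit1, chr19:34640775-34640804, plus strand: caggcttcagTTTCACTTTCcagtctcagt
Ifit3, chr19:34583363-34583392, plus strand: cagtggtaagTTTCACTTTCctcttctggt
Rsad2, chr12:26456553-26456582, minus strand: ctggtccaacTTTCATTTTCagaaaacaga

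Placental families, also chosen after their values were seen, were high in the d15 library of A9 and low in JN. Of 26 autosomal prolactin genes 11 reached 1 CPM on average and of 8 placental cathepsins 4, all through the d15 library of A9 alone, so that their direction in A9 follows from the minimum. Prl2c3 and Prl2c4 had nearly the same counts and form 1 observation. The summed level of the 4 cathepsins went from 1.70 to 227 CPM in A9 and from 0.166 to 1.53 in JN. Whether reads are shared among copies was not tested.

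TATA boxes (TATAAA, either strand) stood in the promoters of 26 of 143 genes higher in both clones (18.2%) and 16 of 77 genes lower in A9 and higher in JN (20.8%), against 917 of 10279 genes (8.92%). It stood in 3 of 25 genes lower in both (12%) and 5 of 16 higher in A9 and lower in JN (31.25%). The motif AGATAA, read by GATA factors, stood in 13.3% and 18.2% of the first 2 classes, in 4 of 25 and 2 of 16 genes of the others and in 7.44% of all. CAGCTG, an E-box, stood in 14.0% and 27.3%, in 3 of 25 and 2 of 16 genes, and in 17.9% of all. Motifs were counted separately and can overlap.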
